A study of Arabidopsis thaliana with 8 samples.

Results

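MBD7 is one of the plant proteins with a methyl-CpG-binding domain, the fold by which such proteins recognise DNA methylated at CG sites. In Arabidopsis, dense DNA methylation marks heterochromatin, the compact and transposon-rich DNA around the centromeres, whereas most of the gene-rich chromosome arms carry little of it or carry it within gene bodies. MBD7 acts with the IDM proteins, which include a histone acetyltransferase, and with DNA glycosylases that remove methylated cytosine, and it limits the spread of methylation at the places it binds. Where its tagged form was enriched along the chromosomes of seedlings, relative to the chromatin from which it was precipitated, is described here.

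The series held 8 chromatin immunoprecipitation sequencing libraries of Arabidopsis thaliana seedlings aged 14 days, and 4 of them form the comparison: 2 libraries of MBD7 ChIP and 2 of MBD7 input. The members were chosen by their labels. MBD7 ChIP came from the line MBD7-5, which carries a genomic MBD7 construct with 4 Myc tags under the MBD7 promoter (proMBD7::gMBD7), after precipitation with a mouse monoclonal antibody to c-Myc. MBD7 input was chromatin of that line without precipitation. WT ChIP and WT input, also 2 libraries each, came from plants labelled WT whose sample names carry 35S-SUC2, and served as background, since these plants hold no tagged protein. The line is a single transgenic line, and the labels name a Millipore antibody for MBD7 ChIP and an Invitrogen one for WT ChIP (the protocol text names only the Invitrogen one), so the antibody supplier and the genotype cannot be told apart in any comparison with WT. Whole seedlings were used, so the values average over cell types, and fewer bound cells and less binding per cell cannot be told apart.

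The MBD7 ChIP libraries held 25846940 and 23761267 counts and the MBD7 input libraries 26739116 and 19224696. On chromosomes 1 to 5 of TAIR10 counts were taken per window of 1000 bp, with a new window every 500 bp, so neighbouring windows share reads. A window had a median of 12 and 13 counts in MBD7 ChIP, against 63 and 44 in MBD7 input. The WT ChIP libraries were shallower, with medians of 4 and 3 counts, against 61 and 51 in WT input. Levels are given as scaled counts in cpm, the count of a window relative to the scaled size of its library, and a log2 fold change is MBD7 ChIP over MBD7 input unless WT is named. The labels do not say that replicates came from separate plants or cultures, so every p-value rests on a spread between libraries that may be technical.

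Position along the chromosomes was examined first in bins of 500 kb that summed only single-copy windows, defined as windows whose WT input lay between 1/3 of and 3 times the median window. Each chromosome had a single broad block of enrichment, and the block covered the centromere region. Of 240 bins, 78 (32.5%) were higher and 136 (56.7%) lower when MBD7 ChIP was set against MBD7 input (edgeR's quasi-likelihood test at a Benjamini-Hochberg adjusted p under 0.05), with standard errors of 0.017 to 0.26 on the log2 scale. Of the 78 higher bins, 70 lay in a single unbroken run on each chromosome. Chromosome 1 had its run at 11 to 18 Mb, chromosome 2 at 0 to 7.5 Mb, chromosome 3 at 10.5 to 17.5 Mb, chromosome 4 at 1 to 7 Mb and chromosome 5 at 8.5 to 16 Mb. On chromosome 2 it reached the end of the short arm, which the runs of the other 4 chromosomes did not.

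The core of each block stood well above its shoulders. The bins with at least 2-fold enrichment numbered 34, against 2 for WT ChIP over WT input, and they lay between 13.5 and 16.5 Mb of chromosome 1, 2 and 5.5 Mb of chromosome 2, 11.5 and 15.5 Mb of chromosome 3, 1.5 and 5.5 Mb of chromosome 4 and 10.5 and 13.5 Mb of chromosome 5. The highest bin of chromosome 1, from 15 to 15.5 Mb, had 8.643 and 7.039 cpm per window in MBD7 ChIP, against 1.818 and 1.785 in MBD7 input. The groups did not overlap, and the log2 fold change was 2.12 ± 0.108 (SE; n = 2 each; adjusted p = 3.7e-08, edgeR's quasi-likelihood test). The highest bin of chromosome 5, from 11 to 11.5 Mb, had 6.157 and 5.249 cpm per window in MBD7 ChIP, against 1.336 and 1.283 in MBD7 input. Its log2 fold change, 2.12 ± 0.26 (adjusted p = 1.53e-05 by edgeR), had the widest error of the 240 bins. The highest bins of chromosomes 2, 3 and 4 had log2 fold changes of 1.8 ± 0.123, 1.81 ± 0.072 and 1.99 ± 0.118. The lowest bin of each chromosome lay in an arm and had a log2 fold change between -0.39 and -0.33.

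Part of this profile was present without tagged protein. In WT ChIP over WT input the log2 fold change of the same 5 bins was 1.17 on chromosome 1, 0.47 on chromosome 2, 0.76 on chromosome 3, 0.66 on chromosome 4 and 0.94 on chromosome 5. The interaction of genotype and precipitation, which subtracts the WT fold change from that of MBD7, was positive and passed the test in each of them, with log2 values of 0.95, 1.33, 1.05, 1.34 and 1.18. Over all bins the interaction was higher in 90 of 240 (37.5%) and lower in 18 (7.5%), and 76 of the 78 enriched bins were among the 90. The other 2 were the first bin of chromosome 4, with a log2 fold change of 0.09 ± 0.03, and the bin of chromosome 1 from 14500001 to 15000000. That bin had a log2 fold change of 2.116 in MBD7 ChIP and 2.009 in WT ChIP, an interaction of 0.107 ± 0.2422 (adjusted p = 0.745, edgeR), so its enrichment with the tagged protein was not distinguished from the background.

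The outline of the blocks differed between chromosomes. On chromosome 4 enrichment began abruptly at 1500001, where the single-copy bin reached 1.2075 ± 0.058 after 0.1277 ± 0.0344 in the bin before it. It then eased to 0.9691 ± 0.0338 in the bin from 2500001 and reached 1.9517 ± 0.1321 in the next one. A heterochromatic knob is known on the short arm of this chromosome, apart from the centromere. On chromosome 2 the bin from 5000001 had a log2 fold change of 1.8035 and that from 5500001 one of 0.9415. On chromosome 5 the enrichment had a long shoulder, with 0.8343 ± 0.0612 in the bin from 14000001 and 0.4866 ± 0.0262 in that from 15000001, and WT ChIP over WT input gave 0.5281 and -0.0174 there.

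**Figure D1:**
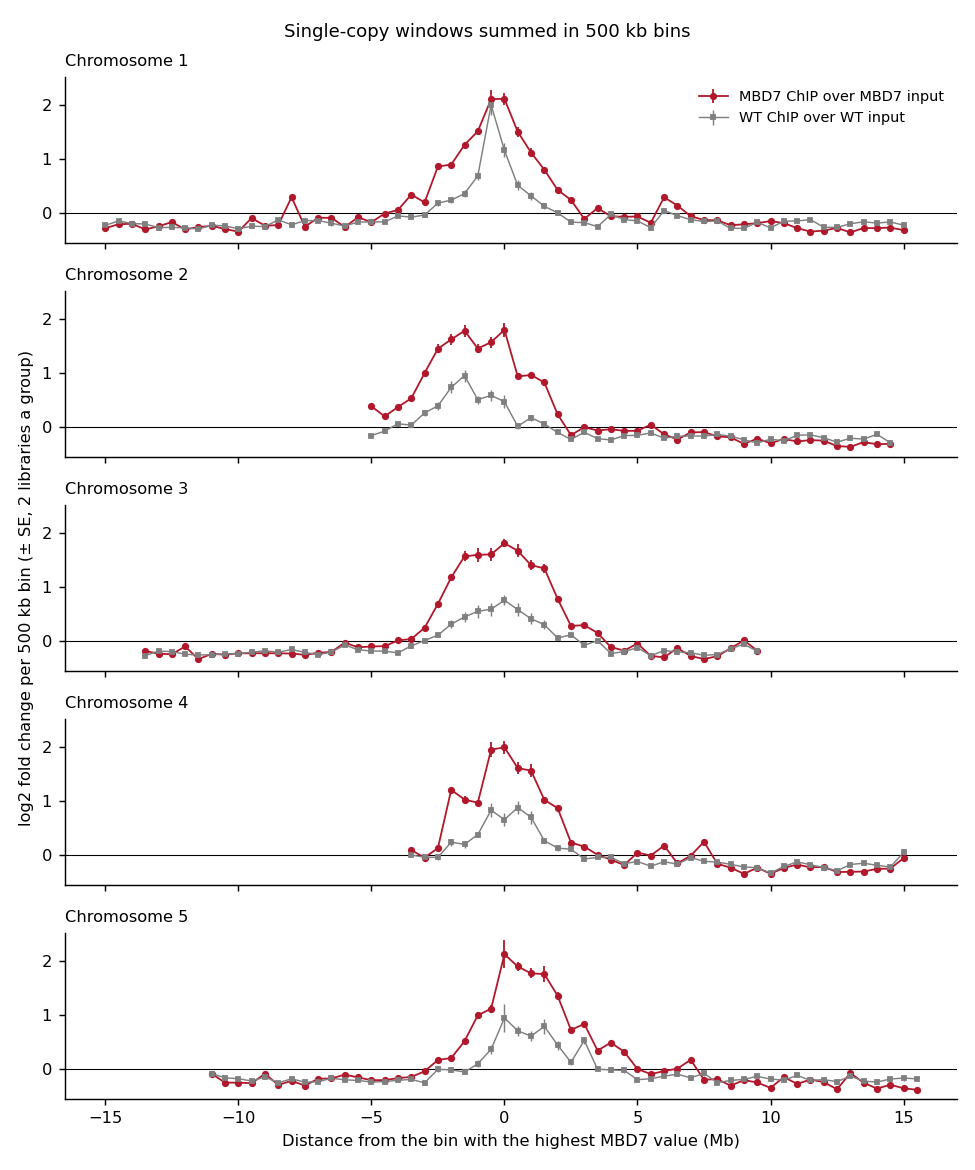
The log2 fold change of single-copy windows summed in 500 kb bins is plotted by distance (Mb) from the highest bin of each chromosome, for MBD7 ChIP over MBD7 input (red circles) and WT ChIP over WT input (grey squares), with bars of 1 SE from 2 libraries a group. Each chromosome has a single block of high bins, with a top MBD7 value between 1.8 and 2.12, and WT lies below MBD7 there except beside the top of chromosome 1, where both are near 2.

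Enrichment outside these runs appeared in 8 further bins, all weak, of which 2 adjoined on chromosome 1 (21 to 22 Mb). The strongest were the bins from 7 to 7.5 Mb and from 21 to 21.5 Mb of chromosome 1, each with a log2 fold change of 0.3 (SE 0.038 and 0.035), and that from 11 to 11.5 Mb of chromosome 4, at 0.25 ± 0.03. Of all windows of these 3 bins, repeated ones included, 9.5%, 16.3% and 20.9% were higher. The second of them, with 163 higher windows, contains a domain of 82 windows over a tRNA gene array, described below. By median that domain stood at 1.25 in MBD7 and 1.35 in WT, and 0 of its windows had a higher interaction. Part of the 16.3% was therefore not distinguished from the background. In 7 of the 8 further bins the interaction also passed. The exception was the first bin of chromosome 4.

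At the scale of single windows, 42096 of 232963 (18.1%) were higher in MBD7 ChIP than in MBD7 input and 14426 (6.19%) lower, in edgeR's quasi-likelihood test at the same threshold. The pericentromere, set here as 11 to 18 Mb of chromosome 1, 1 to 7 Mb of 2, 10 to 17 Mb of 3, 1 to 7 Mb of 4 and 9 to 16 Mb of 5, held 35098 of the higher windows. That was 55.4% of its windows, against 4.13% in the arms. The interaction was higher in 15237 windows (6.54%) and lower in 1336 (0.573%), and 12690 of the windows with a higher interaction lay in the pericentromere. These directions are relative to the scaling. The median log2 fold change of all windows was -0.097, and -2.155 when library size alone set the scale, with 3772 windows higher and 213930 lower. The count of lower windows fell to 6145 without MBD7 ChIP replicate 1 and 7677 without replicate 2, and was 24174 and 24421 without WT input replicate 1 or 2. That of higher interactions fell to 8007 and 9473 without MBD7 input replicate 1 or 2, 8974 without WT ChIP replicate 2, and 8754 and 9159 without WT input replicate 1 or 2.

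Within the arms, enrichment thinned out with distance from the pericentromere. In the first 1 Mb beyond its bounds 7.91% of windows were higher and 4.52% lower, with 41.1 stretches of higher windows per Mb. At 8 to 20 Mb from the bounds 2.07% were higher and 10.1% lower, with 15.6 such stretches per Mb. The median log2 fold change was -0.111 in the near class and -0.318 in the far class, and it fell in each of the 6 distance classes in turn. In WT ChIP over WT input the same medians were -0.167 and -0.236, a smaller span.

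Higher windows that overlap or touch were merged into domains. The 4196 domains covered 23.5 Mb, and 1365 of them (32.5%) held at least 1 window whose interaction also passed. The pericentromere held 2219 domains with a median length of 2500 bp that covered 57.5% of it, from 50.6% on chromosome 1 to 62.8% on chromosome 2. The arms held 1977 domains with a median of 1500 bp that covered 5.28%. Most domains were therefore short in both places, but the covered length was distributed differently. In the pericentromere 355 domains over 10 kb held 71% of the length, and 23 of them over 100 kb held 22.8%. In the arms 29 domains passed 10 kb and none passed 100 kb, and 85.6% of the domains were at most 3 kb long. The 50% point of the covered length lay at domains of 28500 bp in the pericentromere and 2500 bp in the arms. On chromosome 4 it lay at 55000 bp, the longest of the 5 pericentromeres, and on chromosome 2, whose pericentromere had the most domains per Mb (83.3), it lay at 22000 bp.

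**Figure D2:**
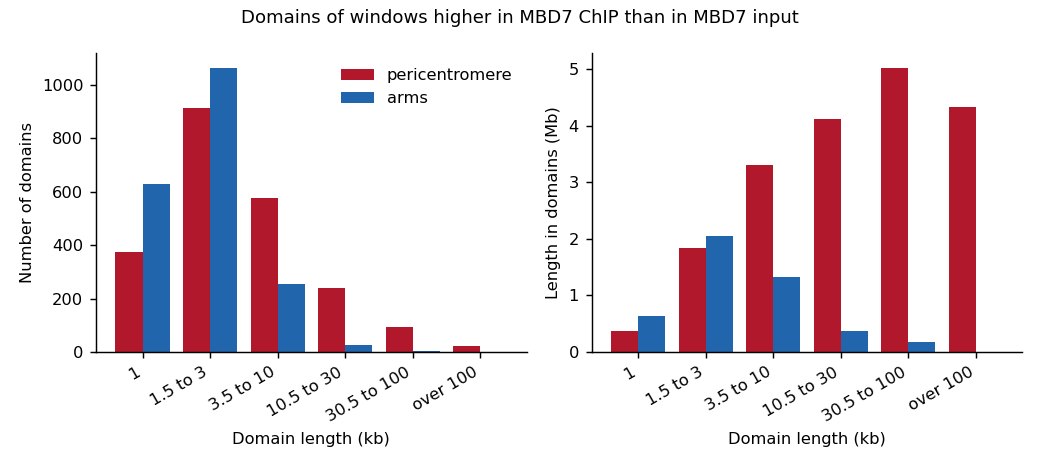
Bars give the number of domains (left) and their summed length in Mb (right) by domain length in kb, for the pericentromere (red) and the arms (blue). The pericentromere and the arms have similar numbers of short domains, 913 and 1065 of 1.5 to 3 kb, whereas the 23 domains over 100 kb, with 4.33 Mb in all, lie in the pericentromere.

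The longest domains were nearly free of protein-coding genes. On chromosome 1 an unbroken domain of 544 kb, from 15058501 to 15602500, held 4 protein-coding genes and 62 pseudogenes, a class that in this gene table includes transposable element genes. Its windows averaged 134 and 105 cpm in MBD7 ChIP, against 13.5 and 14.9 in MBD7 input. WT ChIP averaged 108 and 94.5 cpm there, against 21.9 and 18.9 in WT input. The median log2 fold change of its windows was 2.19, with 1.17 for WT, and the 27.7% of windows that were single-copy had a median of 1.91. The interaction passed in 51% of its windows.

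Domains of like length lay on 3 other chromosomes. On chromosome 5 the domain from 11639501 to 12076000 (436.5 kb) averaged 384 and 315 cpm in MBD7 ChIP, against 37.3 and 41.8 in MBD7 input, and 13.2% of its windows were single-copy. WT ChIP averaged 351 and 295 cpm there, against 61.3 and 52 in WT input, and the interaction passed in 32.6% of windows. On chromosome 3 the domain from 13543501 to 13960500 (417 kb) averaged 366 and 286 cpm in MBD7 ChIP, against 34.2 and 37.6 in MBD7 input. WT ChIP was near that level too, at 302 and 265 cpm, against 54.7 and 46.3 in WT input, and the interaction passed in 38.5% of windows. Neither of these 2 domains held a protein-coding gene, and they held 60 and 53 pseudogenes. The longest domain of chromosome 4, from 3428501 to 3663000 (234.5 kb), was of another make: 63% of its windows were single-copy, none exceeded 9.92 times the median WT input, and its windows averaged 10.3 and 8.55 cpm in MBD7 ChIP, against 2.34 and 2.44 in MBD7 input. Its median log2 fold change of 1.86, against 0.79 in WT, was the same over its single-copy windows alone, and the interaction passed in 42.5% of windows. On chromosome 2 the longest domain of the pericentromere, from 4148001 to 4262500, reached 114.5 kb.

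Removing windows over 3 times the median WT input before merging cut the longest domain to 59 kb, gave 5722 domains and left 17.9 Mb covered. The largest domains are thus chains of single-copy and repeated windows. With merging across gaps of up to 2000 bp the longest reached 1064 kb.

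In the arms the longest domain of each chromosome had its own content. On chromosome 2 the domain from 501 to 72500, at the end that carries a nucleolus organiser with its arrays of ribosomal RNA genes, averaged 102 and 92 cpm in MBD7 ChIP, against 9.46 and 10 in MBD7 input. Its median log2 fold change was 2.74, against 0.7 for WT ChIP over WT input, and the interaction passed in 90.2% of its windows. By mean level the background was strong, since WT ChIP averaged 63.5 and 51.7 cpm there, against 13.5 and 14.1 in WT input. On chromosome 4 the domain from 11036001 to 11096000 (60 kb) averaged 26.5 and 24.7 cpm in MBD7 ChIP, against 6.67 and 7.14 in MBD7 input, and it held 22 protein-coding genes, the first of them AT4G20520. Its interaction passed in 58.8% of windows. On chromosome 5 the domain from 18118501 to 18133000 lay over 3 pseudogenes and part of LAZ5, a gene of the immune receptor class, with 18.3 and 17.4 cpm, against 4.87 and 5.08. WT ChIP over WT input had a median log2 fold change of 0.02 there, and MBD7 one of 1.62. On chromosome 3 the domain from 8842501 to 8859000 held 6 pseudogenes and the protein-coding gene AT3G24360.

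The longest arm domain of chromosome 1 was the exception to this. It ran from 21268001 to 21309500 over an array of 81 tRNA genes and 1 long non-coding RNA gene. MBD7 ChIP averaged 8.95 and 7.01 cpm there, against 3.23 and 3.38 in MBD7 input. WT ChIP averaged 10.6 and 7.05 cpm, against 3.5 and 3.45 in WT input. The median log2 fold change was 1.25 in MBD7 and 1.35 in WT, and the interaction was higher in 0 of 82 windows by edgeR, also in 0 at an unadjusted p under 0.05 and in 0 by DESeq2's Wald test, adjusted or not. This domain, called against input alone, had a like enrichment in the untagged precipitation.

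Single-copy and repeated DNA were compared by the depth of WT input, which the MBD7 libraries did not set and which is also the denominator of the WT ratios. Enrichment grew with depth class in MBD7 from the single-copy class upward, and so did the background in WT. In the pericentromere 48.8% of 46606 single-copy windows were higher, with a median log2 fold change of 0.732, against 0.154 for WT ChIP over WT input. Summed over these windows, MBD7 ChIP held 2.27 and 2.03 times its input in replicates 1 and 2, while WT ChIP held 1.36 and 1.21 times its own. Of the 10270 windows at 3 to 10 times the median 95.2% were higher, with a median of 1.843 and summed ratios of 4.01 and 3.29 in MBD7, against 2.2 and 1.82 in WT. Of the 1770 windows at 10 to 100 times it 84.4% were higher, with a median of 2.133 and summed ratios of 5.15 and 4.18 in MBD7, against 3.7 and 3.07 in WT. The interaction passed in 14.4%, 52.2% and 32.9% of these 3 classes, so its share was greatest at the intermediate depth. Its median was 0.609, 0.886 and 0.643 in them. The share that passes also depends on the counts per window, which were low in WT ChIP.

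In the arms the single-copy windows showed no enrichment as a class. Only 3.34% of 155190 were higher, the median log2 fold change was -0.27 against -0.244 in WT, and the summed ratios were 0.897 and 0.892 in MBD7 and 0.886 and 0.877 in WT. Repeated windows of the arms were enriched, though less than those of the pericentromere at 3 to 10 times the median, where 63.8% of 2315 were higher with a median of 0.931. At 10 to 100 times the median 83.4% of 157 were higher, with a median of 1.835.

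The 215 windows over 100 times the median took most of the precipitated reads. They held 68.1% and 65.5% of the counts of MBD7 ChIP, against 26.8% and 28.5% of MBD7 input. In WT they held 71.6% and 70.2% of ChIP counts, against 37% and 32.9% of input counts. All of the 215 were higher in MBD7 ChIP. Their median log2 fold change was 3.27, and WT ChIP over WT input had a median of 2.686. The interaction passed in 18.6% of them, which leaves most without a detectable difference from the untagged precipitation. Their scaled ChIP sums overlapped between the genotypes, at 1.526e+06 and 1.239e+06 cpm in MBD7 and 1.371e+06 and 1.135e+06 in WT. The scaled input sums did not overlap and were lower in MBD7, at 129000 and 142600 cpm against 215500 and 179900 in WT. Single-copy windows held 13.5% and 15.3% of MBD7 ChIP counts and 51.7% and 50.2% of MBD7 input counts. Copies of a repeat may share reads, since the counting of reads with several alignments is not given in the sources used here.

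**Figure D3:**
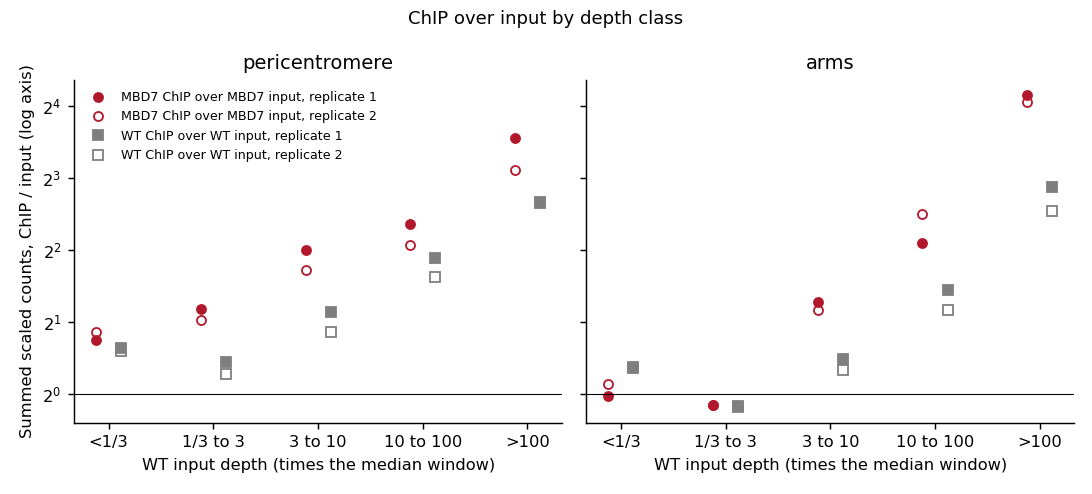
Points give the ratio of summed scaled counts, ChIP over input, on a log2 axis for each class of WT input depth, by replicate, for MBD7 (red circles) and WT (grey squares) in the pericentromere (left) and the arms (right). Ratios grow with depth in both genotypes from the single-copy class upward, and MBD7 lies above WT in every repeated class, from 4.01 and 3.29 against 2.2 and 1.82 at 3 to 10 times the median in the pericentromere. Over 100 times the median in the pericentromere the scaled ChIP sums of the genotypes overlap, and the input sums are lower in MBD7.

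Single repeated windows separated these situations. The window of chromosome 3 from 14254001, over AT3G42060, had 73 and 42.1 cpm in MBD7 ChIP, against 2.7 and 3.21 in MBD7 input. WT ChIP had 1.03 and 7.16 cpm there and WT input 4.89 and 4.25. The log2 fold change was 4.29 ± 0.24 (SE; adjusted p = 7.75e-20, edgeR) and the interaction 4.57 ± 0.42. The window of chromosome 5 from 15242001, over the pseudogene AT5G38192, had 112 and 110 cpm in MBD7 ChIP, against 6.56 and 6.85 in MBD7 input, a log2 fold change of 4.05 ± 0.22, and WT gave 0.39. WT ChIP had 15.9 and 3.9 cpm at the second window, against 8.39 and 7.53 in WT input. Both windows, at 4.03 and 7.01 times the median WT input, were thus enriched in MBD7 far above the WT levels. In each of them the WT ChIP replicates lay on either side of the WT inputs, so the background there is uncertain.

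At higher depth the background was strong. The window of chromosome 3 from 14193501, over the RNA gene AT3G00660, had 7050 and 8910 cpm in MBD7 ChIP, against 251 and 261 in MBD7 input, a log2 fold change of 4.96 ± 0.26. WT ChIP had 7400 and 5310 cpm there, against 650 and 592 in WT input, a log2 fold change of 3.36, and the interaction was 1.61 ± 0.31 (adjusted p = 0.000331, edgeR). Here the ChIP levels of the genotypes overlapped and the input levels did not, being lower in MBD7. The same held for AT3G06365 (start 14203501), with an interaction of 1.54. The windows from 14204501 of chromosome 3 (1.59) and 10001 of chromosome 2 (1.65) had like interactions and also lower inputs in MBD7. Their ChIP levels did not overlap, with 1010 and 900 cpm in MBD7 against 829 and 578 in WT at the first. At the second they were 614 and 781 against 504 and 357.

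Repeated DNA of the pericentromere was not enriched throughout. Lower windows were 1.49% of those at 3 to 10 times the median, 6.67% at 10 to 100 times and 0% over 100 times. The share was 1.33% over all windows of the pericentromere and 6.19% over all windows. Of the 271 repeated windows of the pericentromere that were lower in MBD7 ChIP, 240 (88.6%) lay between 3000001 and 3500000 of chromosome 2, a region known for a large insertion of mitochondrial DNA. From 3186001 to 3505500 there were 244 lower windows, whose log2 fold changes ran from -1.06 to -0.46 around a median of -0.64. Their median depth was 9.69 times that of the median window. WT ChIP over WT input had a median of 0.38 and the interaction one of -1.02. In the same 500 kb the single-copy windows had a log2 fold change of 1.6269 ± 0.1012. Whether the reads of the lower windows came from the insertion or from mitochondria was not tested. Their values therefore may not describe the chromosomal DNA.

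Fine structure was then read from the single-copy windows, with log2 ChIP/input taken in each replicate apart (0.25 cpm added to both). The replicate ratios of the same window correlated with r = 0.811 over 46606 windows of the pericentromere and 0.397 over 155190 of the arms. These are descriptions, since windows overlap and each ratio shares its depth across windows. When the window in replicate 2 was moved away from that in replicate 1, r in the pericentromere was 0.74 at 1 kb, 0.571 at 5 kb, 0.484 at 10 kb, 0.402 at 100 kb and 0.282 at 500 kb. In the arms it was 0.265 at 1 kb, 0.082 at 5 kb and 0.014 at 500 kb. In the pericentromere r dropped most over the first 10 kb and then slowly, and in the arms little of it was left beyond 5 kb.

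Peaks inside the pericentromere recurred only in part. Summits with a prominence of at least 1 on the log2 scale numbered 433 in replicate 1 and 416 in replicate 2 where the surrounding windows were single-copy. Read in the other replicate, 74.6% and 75% of these stood above the mean of the windows 2000 bp to either side, by a median of 0.34 and 0.35. A summit was found within 500 bp in the other replicate for 29.3% of both sets. With a prominence of 1.5 there were 198 and 179 summits, of which 80.8% and 79.9% stood above their flanks. For most summits of either replicate none was found within that distance in the other.

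Steep edges were scored by their step in the other replicate, without a search for a matching position. Their recurrence therefore cannot be ranked against that of the summits. An edge was a place where the medians of 10 single-copy windows on either side differed by at least 1.5 on the log2 scale in a replicate. Of the 30 edges set in replicate 1 all stepped the same way in replicate 2, with a median step of 1.42 (quartiles 1.06 and 1.81), and 25 stepped by at least 1. The 27 edges set in replicate 2 all stepped the same way in replicate 1, with a median of 1.46 and 21 by at least 1. In the median profile of the first set, read in replicate 2, the log2 ratio was 0.306 in the window centred on the edge, 0.958 at 1000 bp inside and 1.64 at 2000 bp inside. The change was thus spread over about 2 kb, which is near the limit that windows of 1000 bp and fragments of about 500 bp allow.

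**Figure D4:**
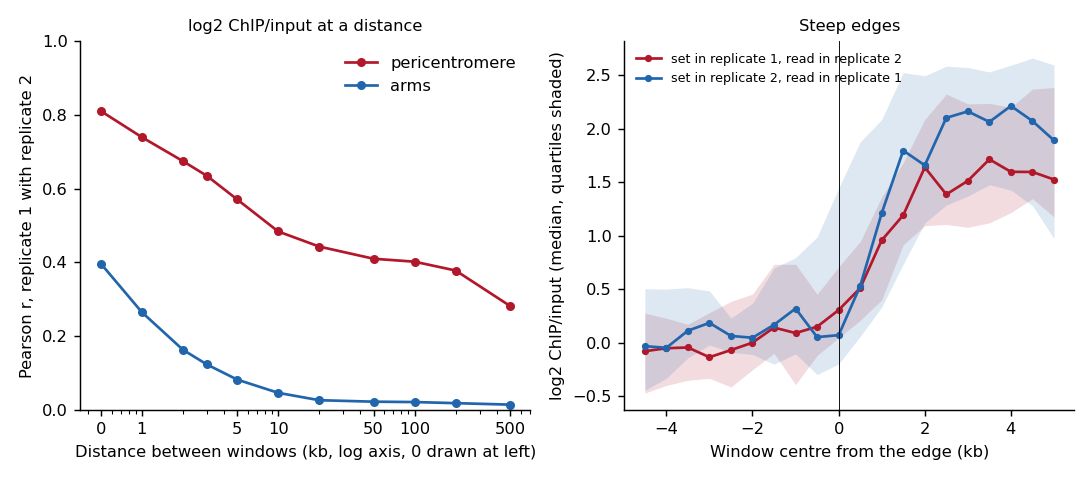
Left, Pearson r between log2 ChIP/input of replicate 1 and of replicate 2 is plotted against the distance between their windows (kb, log axis), for single-copy windows of the pericentromere (red) and the arms (blue). Right, median log2 ChIP/input with quartiles is plotted by distance (kb) from steep edges set in a replicate and read in the other. In the pericentromere r is 0.811 at the same window and 0.282 at 500 kb, and at the edges the ratio climbs over about 2 kb.

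The pericentromere also held stretches without enrichment. Runs of single-copy windows with a log2 fold change below 0 over at least 5 kb numbered 184 and covered 1.22 Mb, with a median length of 6000 bp, and they were chosen by that sign, so their values are descriptions. They overlapped 460 of the protein-coding genes, 35 of the pseudogenes and 76 of the RNA genes, of 3845 protein-coding genes and 3807 pseudogenes that start in the pericentromere. The stretches had to be single-copy, which by itself leaves out repeated pseudogenes. Chromosome 1 held 63 of them and chromosome 2 only 8, and 7 in all lay between the outermost bins with 2-fold enrichment.

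The longest low stretch ran for 14.5 kb on chromosome 5, from 15608501 to 15623000, over AT5G38990 to AT5G39030. Its windows averaged 1.11 and 1.16 cpm in MBD7 ChIP, against 1.42 and 1.57 in MBD7 input. Its median log2 fold change was -0.35, with -0.55 in WT. On chromosome 1 a stretch of 13.5 kb from 11527001 to 11540500 held SCAMP5, a secretory membrane protein gene, PRK, which encodes the Calvin cycle enzyme phosphoribulokinase, NSI, an acetyltransferase gene, and LrgB. It averaged 0.977 and 1.04 cpm in MBD7 ChIP, against 1.37 and 1.48 in MBD7 input, and its median log2 fold change was -0.41, with -0.33 in WT. On chromosome 4 the stretch from 1049501 to 1063000 held PARP2, a poly(ADP-ribose) polymerase gene, and 9 of its 26 windows were lower, with 1.01 and 0.952 cpm in MBD7 ChIP, against 1.47 and 1.53 in MBD7 input. Its median was -0.65, with -0.08 in WT. Others held EXLA3 and EXLA1, expansin-like genes, with the histone gene HTB9 on chromosome 3, CUL1, which encodes a scaffold of ubiquitin ligases, with UNE12 on chromosome 4, and CALS5, a callose synthase gene, and MIR398a on chromosome 2.

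Genes of the pericentromere differed by kind. Of 3844 protein-coding genes there 65.3% had no higher window, 23.4% had some and 11.3% had every window higher. Of 3806 pseudogenes 70.1% had every window higher and 10.4% had none. In the arms 93% of 23585 protein-coding genes had no higher window, and of 1036 pseudogenes 61.7% had none and 20.6% had every window higher. Windows reach beyond gene ends, so neighbouring genes can share them. These calls were made against input alone. In the pericentromere 55.4% of windows were higher and the interaction was higher in 20%, and the part of the background in the contrast of kinds was not tested.

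The arms also held short, isolated sites. Of 1977 arm domains 1693 were at most 3 kb long, and 1413 of these were single-copy throughout. In 170 of them the summit window had a mean of at least 10 counts, both MBD7 ChIP libraries above both inputs and a positive interaction that passed. The 2 strongest of each chromosome are described. They were chosen by their fold change, that separation and that interaction, so their values and adjusted p are descriptions.

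On chromosome 3 the window from 525501 to 526500 lay over SADHU6-1, a Sadhu non-coding retrotransposon, and the neighbouring GRF7, which encodes a regulatory protein of the 14-3-3 family. It had 9.45 and 7.32 cpm in MBD7 ChIP, against 1.53 and 1.85 in MBD7 input. WT ChIP stood at 0.514 and 1.3 cpm, against 1.61 and 1.82 in WT input. The MBD7 ChIP levels lay above those of every other library, and the log2 fold change was 2.32 ± 0.17 (SE; n = 2 each; adjusted p = 5.87e-16 by edgeR), with an interaction of 3.3 ± 0.48 (adjusted p = 2.25e-06). The 5 windows from 1000 bp before to 1000 bp after the summit window were all higher, a domain of 3000 bp from 524501 to 527500. The signal ended sharply before it, since 1500 bp before the summit window MBD7 ChIP lay at 1.21 and 1.35 cpm and MBD7 input at 1.44 and 1.33. After it the signal eased, with 2.51 and 3.02 cpm at 1500 bp, against 1.89 and 2.19, and a shoulder of 3 higher windows followed. The first of them, at 2500 bp, had 3.55 and 4.69 cpm in MBD7 ChIP, against 2.56 and 2.66 in MBD7 input, a log2 fold change of 0.67 (adjusted p = 0.00668, edgeR). WT ChIP had 2.31 and 3.58 cpm in that window, against 2.61 and 2.79 in WT input, so the ChIP levels of the genotypes overlapped there.

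On chromosome 5 the window from 971001 to 972000 lay over AT5G03710 and part of HSFA3, a heat stress transcription factor gene. It had 9.71 and 12.7 cpm in MBD7 ChIP, against 3.26 and 1.3 in MBD7 input, and WT ChIP stood at 0.771 and 4.56 cpm, against 2.87 and 2.86 in WT input. The log2 fold change was 2.23 ± 0.22 (adjusted p = 5.83e-12, edgeR), though the inputs of MBD7 differed from each other. The edge of this site was sharp: 1000 bp before the window MBD7 ChIP had 0.433 and 0.557 cpm, and 500 bp before it 7.71 and 6.37. MBD7 input also rose at that step, from 0.396 and 0.599 cpm to 2.34 and 1.09. The log2 fold change went from 0.05 to 1.95. Within HSFA3 the window from 973001, at a distance of 2000 bp, was lower, with 4 and 9 counts in MBD7 ChIP, against 74 and 51 in MBD7 input, a log2 fold change of -1.3 ± 0.36 (adjusted p = 0.00451, edgeR). Without MBD7 ChIP replicate 1 this lower call was lost, at -0.89 (adjusted p = 0.182).

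**Figure D5:**
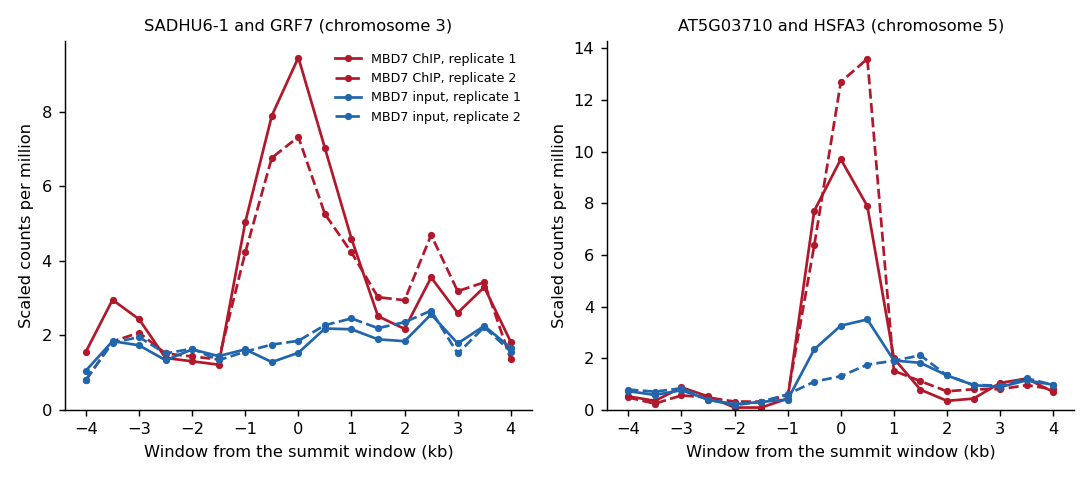
Scaled counts (cpm) are plotted for windows within 4 kb of the summit window, for the MBD7 ChIP libraries (red) and the MBD7 input libraries (blue), at SADHU6-1 and GRF7 (left) and at AT5G03710 and HSFA3 (right). Solid lines are replicate 1 and dashed lines replicate 2. Both MBD7 ChIP libraries peak at the summit window or 500 bp after it and stand above both inputs there, with 9.45 and 7.32 against 1.53 and 1.85 at the first site.

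Of the other arm sites the cleanest by library lay over protein-coding genes. AT5G15420 (chromosome 5, 5008001 to 5009000) had 10.1 and 11.9 cpm in MBD7 ChIP, against 2.27 and 2.14 in MBD7 input, a log2 fold change of 2.31 ± 0.17 and an interaction of 3.59. AT1G56530 (chromosome 1, 21180001 to 21181000) had 7.89 and 11.5 cpm, against 1.6 and 1.17, with 2.77 ± 0.17 and an interaction of 1.96. AT2G38070 (chromosome 2, 15929001 to 15930000) had 7.71 and 7.64 cpm, against 2.18 and 2.06, with 1.85 ± 0.17 and an interaction of 2.3. At these 3 genes the replicates of each MBD7 group lay close together relative to the gap between groups. NPG1 (chromosome 2, 17896501 to 17897500), a gene needed for pollen germination, had lower levels, 2.6 and 3.58 cpm in MBD7 ChIP, against 0.937 and 1.17 in MBD7 input, with 1.59 ± 0.23 and an interaction of 3.36. That interaction rested on 1 and 2 counts in WT ChIP. WT ChIP over WT input was -1.77 ± 0.67 there (adjusted p = 0.138, edgeR), and DESeq2's Wald test gave the interaction no adjusted p.

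The remaining sites were less even between replicates or thin in counts. The pseudogene AT3G52410 (chromosome 3, 19428501 to 19429500) had 19.2 and 14.3 cpm in MBD7 ChIP, against 3.59 and 1.46 in MBD7 input, where the input counts were 199 and 56. The window of chromosome 1 from 21744001, outside annotated genes, had 11.3 and 30.5 cpm, against 4.24 and 2.79. The window of chromosome 4 from 14911501, also outside genes, had 6.07 and 2.15 cpm, against 1.32 and 0.339, and WT ChIP had 1 and 0 counts there. That of chromosome 4 from 18250501 had 2.77 and 2.86 cpm, against 0.703 and 0.704, from 32 and 36 counts in MBD7 ChIP and 39 and 27 in MBD7 input. The interaction of the last 3 windows was lost without single libraries. It was 1.84 at 21744001, with 0.92 without MBD7 ChIP replicate 2 (adjusted p = 0.127, edgeR). At 18250501 it was 1.7, with 1.14 without WT input replicate 1 (adjusted p = 0.33, edgeR). At 14911501 it was 4.22, and it was lost without WT ChIP replicate 2, at 3.4 (adjusted p = 0.156, edgeR), and without 5 other libraries. Without WT ChIP replicate 1, which leaves 0 counts in WT ChIP, the fitted value was 9.44 (adjusted p = 0.0833, edgeR) and depends on the prior count. Without the other 4 it was between 3.32 and 4.23.

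Some genes held an enriched and a depleted window at once. This was so for 25 of the 3844 protein-coding genes of the pericentromere and 210 of the 23585 of the arms. Besides HSFA3 the widest spans among single-copy genes in which the interaction passed in at least 1 window, chosen after their values were seen, were in AT1G35220, AT5G07400, NPH4 and AT4G23460. In AT1G35220 the window from 12908001 had 2.86 and 3.42 cpm in MBD7 ChIP, against 1.39 and 1.3 in MBD7 input, a log2 fold change of 1.22 ± 0.21. The window 6000 bp further on had 0.173 and 0.159 cpm, against 0.451 and 0.625, a value of -1.63 ± 0.62. In NPH4, an auxin response factor gene, 6 of 14 windows were higher, up to 1.02 ± 0.21, and the window from 7021501 had -1.5 ± 0.46. The lower windows rest on 2 to 9 counts per MBD7 ChIP library in these 5 genes. The interaction passed in none of these lower windows (edgeR adjusted p from 0.0503 to 0.71), nor in the highest window of NPH4 (adjusted p = 0.317). The lower call of AT1G35220 was lost without any of 3 MBD7 libraries, at -1.69 without MBD7 ChIP replicate 1, -1.57 without MBD7 ChIP replicate 2 and -1.53 without MBD7 input replicate 2, and that of NPH4 at -1.25 without MBD7 ChIP replicate 1. The lower calls of AT5G07400 and AT4G23460 were kept in only 10 and 11 of 15 alternative settings. In the highest windows of AT1G35220, AT5G07400 and AT4G23460 the interaction was lost in some of these settings.

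The genes that act with MBD7 in active DNA demethylation were followed as a list of 11, of which all matched the gene table. Of their 130 windows 9 were higher and 11 lower, and the interaction was higher in 0, against 18.1%, 6.19% and 6.54% of all windows. All 11 genes lie in the arms, where these shares were 4.13%, 8.01% and 1.5%, and 6 of the 9 higher windows lay over MBD7 itself. At an unadjusted p under 0.05 edgeR gave 12 higher interactions. DESeq2's Wald test gave 0 adjusted, with 98 windows lacking an adjusted p, and 5 unadjusted. MBD7 itself had 6 of 7 windows higher, averaging 17.9 and 17.8 cpm in MBD7 ChIP, against 8.69 and 8.79 in MBD7 input. WT ChIP averaged 2.28 and 3.07 cpm there, against 1.08 and 1.15 in WT input, so MBD7 input stood above WT input over the gene that the construct carries. The median log2 fold change was 1.07 in MBD7 and 1.23 in WT. ROS1, a DNA glycosylase that excises methylated cytosine, had 2 of 16 windows higher, up to 0.8 ± 0.22 (adjusted p = 0.00364, edgeR), and IDM3 had 1. Lower windows were found in DML2 (4), DME (3) and DML3 (2), further DNA glycosylases, and in the acetyltransferase gene IDM1 (1) and the DNA phosphatase gene ZDP (1). IDM2, APE1L and LIG1 had neither.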

How the data were processed

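The deposited table held raw counts, whole numbers of reads per window of 1000 bp every 500 bp, and 0 columns of other samples. The submitters' processing notes name TAIR10 as the build, with Bowtie2, featureCounts and SAMtools as tools. Their versions, duplicate removal and the counting of multi-mapping reads are not given. Per the labels' protocols 3 g of seedlings were fixed in 1% formaldehyde and chromatin was sheared to about 500 bp. Counts of all 8 libraries were fitted together by group in R 4.3.3, with edgeR 4.0.16 (TMM scaling after filterByExpr, two-sided quasi-likelihood test, Benjamini-Hochberg at 0.05), and 232963 of 238296 windows on chromosomes 1 to 5 were tested. TMM factors were 0.447 and 0.529 in MBD7 ChIP and 2.08 and 2 in MBD7 input. Bins of 500 kb summed non-overlapping single-copy windows with the same factors and needed at least 50 of them. Genes were named by RefSeq annotation (TAIR10.1), whose coordinates are not printed.

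Replicates of every group differed by more than sampling noise (chi-square per window 1.13 to 2). Replicate numbers did not pair the samples (r of deviations -0.006 to 0.037 between groups). Named were, per chromosome, the 2 longest domains of the pericentromere and the longest of the arms, the 2 strongest short arm sites and the 2 longest low stretches, then the 2 highest windows of each repeated class and every gene of the list. The members, pericentromere bounds, rule and list were chosen with earlier results of these data known. DESeq2 1.42.0 gave an alternative test, other alternatives are in the closing section, and the edgeR fits of windows and of bins were tested on simulated data. Intervals and SEs do not cover PCR duplicates. Figures used matplotlib 3.10.9.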

Additional observations from a re-analysis of the deposited data

Results flagged for a closer look

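The fold change of MBD7 ChIP over MBD7 input differed from that of WT ChIP over WT input, by the interaction in the fit of all 8 libraries, in 15237 windows with a higher and 1336 with a lower value, and in 90 bins of 500 kb with a higher and 18 with a lower one. In the highest bin of chromosomes 1 to 5 the interaction was 0.95, 1.33, 1.05, 1.34 and 1.18 on the log2 scale. The arm sites were chosen for a positive interaction that passed, so a difference there was set by the choice. At these sites the interaction was 1.96 (AT1G56530), 1.84 (chromosome 1 from 21744001), 2.3 (AT2G38070), 3.36 (NPG1, where WT ChIP had 1 and 2 counts), 2.24 (AT3G52410), 3.3 (SADHU6-1 and GRF7), 4.22 and 1.7 (chromosome 4 from 14911501, where WT ChIP had 1 and 0 counts, and from 18250501), 3.59 (AT5G15420) and 2.46 (AT5G03710 and HSFA3). In the repeated windows it was 4.57 (AT3G42060), 3.66 (AT5G38192), 1.65 (chromosome 2 from 10001), 1.59 (chromosome 3 from 14204501), 1.61 (AT3G00660) and 1.54 (AT3G06365). The antibody supplier named in the labels and the depth differed with the genotype, and their part in these values was not tested.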

How the results depend on the processing

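Direction is relative to the scaling. With library size alone 3772 windows were higher and 213930 lower, the interaction was higher in 5748 and lower in 2761, 462 domains and 0 higher bins of 240 were left (edgeR, also 0 at an unadjusted p under 0.05), and 234 bins were lower. Of the 25 named windows 7 changed sign, to -0.22 (AT2G38070), -0.48 (NPG1), -0.07 (chromosome 4 from 18250501), -0.85 (AT1G35220 from 12908001), -0.98 (AT5G07400 from 2345501), -1.05 (NPH4 from 7016501) and -0.95 (AT4G23460 from 12244501). Under DESeq2's size factors no count of windows, domains or bins moved by over 1.5 times. DESeq2's Wald test called 2875 windows lower, and a test against a 1.5-fold change called 1794 lower, 6236 with a higher and 315 with a lower interaction. Bins of 200 kb, 593 in all, gave 189 higher and 339 lower. Single-copy windows had a median of -0.153 over the genome and 0.732 in the pericentromere alone. The cause of these differences was not tested.

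Leaving out each library in turn gave 35231 to 43022 higher and 6145 to 24421 lower windows, 8007 to 18628 higher and 937 to 1629 lower interactions, 3384 to 4349 domains, and 65 to 78 higher and 123 to 161 lower bins. Without a single library 81.9% or more of the 42096 higher windows were called again, the lowest share being without MBD7 ChIP replicate 1. With the replicate number as a block 41886 windows were higher, as were 78 bins, and 136 bins were lower. Same-numbered libraries did not deviate together, so the block stands for no pairing. WT ChIP was the shallowest group, with 4 and 3 counts in the median window, which limits the precision of the interaction in single windows.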
